A study of Homo sapiens with 18 samples.

Results

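The control arms of a microarray study of disulfiram and 5-fluorouracil in hepatocellular carcinoma (HCC) cells are described here: 6 of the 18 arrays of the series, chosen because their labels name a control. There were 3 arrays of Huh1 control cells and 3 arrays of Huh7 control cells. Huh1 and Huh7 are established human HCC lines that grow in culture, so each group stands for 1 line and not for a set of tumors. In both groups the cells were labelled only as controls, so whether they had been given a vehicle is not known, and had been sorted by flow cytometry for EpCAM, the epithelial cell adhesion molecule, before total RNA was extracted. The methods describe the replicate arrays as coming from independent experiments, while the labels give only a replicate number, and the p-values below measure the spread between these arrays. The question of the comparison was how far EpCAM+ cells of the 2 lines differed before any drug was given.

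EpCAM is a surface protein of liver progenitor cells and of many HCC cells, and EpCAM+ HCC cells are studied as tumor-initiating cells because they form spheres and tumors more readily than EpCAM- cells. Hepatocytes make most plasma proteins, clear drugs through cytochrome P450 and conjugating enzymes, and run the urea cycle. HCC cells keep these functions to differing degrees, and often express fetal liver genes again, of which *AFP* (alpha-fetoprotein) is the best known.

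Each level is the log2 of an Agilent 1-colour array signal minus the 75th percentile of that array, so 0 is the 75th percentile, and each difference is the Huh7 mean minus the Huh1 mean. A gene was read from its brightest probe. On the 6 arrays between 59.9% and 65.2% of 42405 probes were well above the local background by the scanner software's own test. Correlations were taken over the 27438 probes above background on every array of at least 1 line. They were 0.990 to 0.996 within a line and 0.819 to 0.824 between lines. The hepatocyte genes *ALB*, *TTR*, *APOA1*, *SERPINA1*, *FGB* and *TF* were well above background on all 6 arrays. Of the markers of other cells, 2 of 7 for stellate cells, 3 of 5 for endothelial cells, 4 of 5 for leukocytes and 2 of 3 for red cells passed the filter on dim probes in at least 1 line. *CD3E* of T cells, *HBB* of red cells, *PDGFRB*, *DCN* and *COL3A1* of stromal cells and *KDR* and *TEK* of endothelial cells passed it in neither line, while *CD68* and *CD14*, genes of macrophages that other cells express too, passed it and were lower in Huh7 (-1.40 and -1.37). Their part in the results was not tested. The 3 Huh1 arrays were on 1 slide and the 3 Huh7 arrays on another, so line and slide cannot be told apart within these arrays.

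Most of the transcriptome separated the 2 lines. Of 27438 probes tested with limma, 10244 (37.3%) were higher and 10702 (39.0%) lower in Huh7 at a Benjamini-Hochberg adjusted p under 0.05, 76.3% in all. Going by presence alone, 1982 probes (7.22%) were well above background on every Huh7 array and on no Huh1 array, and 818 (2.98%) showed the reverse. Per gene, 6253 of 14965 (41.8%) were higher and 6097 (40.7%) lower, and with a difference of at least 2-fold 3253 (21.7%) were higher and 2508 (16.8%) lower. Which direction held more of the 2-fold probes depended on the setting: 5358 were higher and 4301 lower, but 3050 and 3205 among probes above background on all 6 arrays, and 4795 and 5188 with median scaling. The median difference over all genes was 0.008 and the median size of a difference was 0.73 on the log2 scale. A call alone therefore says little here, and the gene lists below are read by size and by their place against these shares. By gene, 1001 (6.69%) were seen in Huh7 only in this sense and 426 (2.85%) in Huh1 only. For these the signal of the dark line is only an upper limit, and the fold is given as a lower bound against the lowest signal called above background on each array, or against the probe's own value where that was higher.

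**Figure D1:**
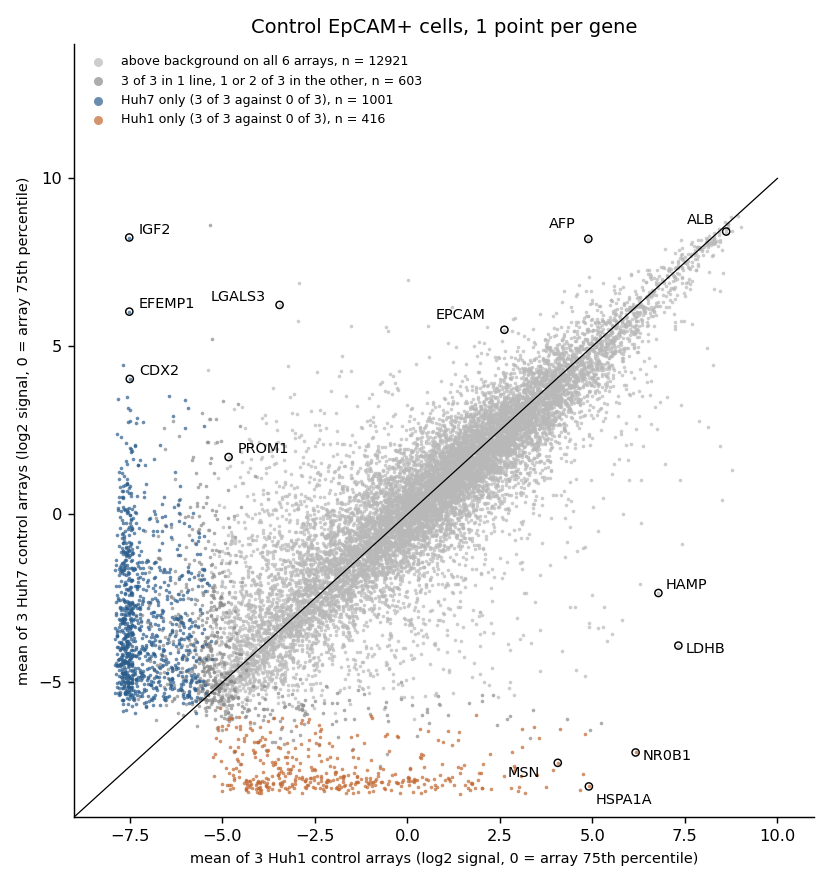
Mean level of each named gene on the 3 Huh1 control arrays (horizontal) and the 3 Huh7 control arrays (vertical), in log2 units relative to each array's 75th percentile. Points on the line had equal levels. The 1001 genes seen in Huh7 only form the left edge, and the genes seen in Huh1 only form the lower edge (a few genes are not drawn). *ALB* lay near the line, while *IGF2*, *LDHB* and *NR0B1* lay far from it.

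The marker used for the sort was itself unequal. *EPCAM* read 2.71, 2.57 and 2.58 on the Huh1 control arrays and 5.47, 5.47 and 5.53 on the Huh7 control arrays. The groups did not overlap, which held for 12944 of the genes tested, against 1997 whose groups overlapped. *EPCAM* was 7.33-fold higher in Huh7 (difference 2.87, SE 0.06, limma adjusted p = 3.64e-07). *PROM1*, which encodes the progenitor surface protein CD133, read -4.65, -5.09 and -4.76 on the Huh1 control arrays and 1.72, 1.71 and 1.69 on the Huh7 control arrays. That is a 93-fold difference (SE 0.12 on the log2 scale, adjusted p = 2.99e-07), with all arrays of both lines above background. *ANPEP*, which encodes the aminopeptidase CD13, went the other way and read 1.49, 1.40 and 1.38 on the Huh1 control arrays and -0.03, -0.11 and -0.08 on the Huh7 control arrays. It was 2.82-fold lower in Huh7 (difference -1.50, adjusted p = 2.83e-06).

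Of the 17 tumor-initiating and progenitor cell markers listed, 14 were tested, of which 9 were higher and 5 lower in Huh7, 8 and 4 of them by at least 2-fold. The list's median difference was 1.73. *SOX9*, a transcription factor of bile duct and progenitor cells, differed by 5.17. *KRT19*, a bile duct keratin, averaged 2.90 ± 0.98 in Huh1 and 5.83 ± 0.07 in Huh7 (SD, n = 3), a difference of 2.93. The 3 Huh1 arrays read 4.04, 2.39 and 2.28, so array 1 stood apart, and all of them lay below the Huh7 arrays. *CDH1* (E-cadherin) differed by 2.29, and *LGR5*, a stem cell receptor that potentiates Wnt signals, was seen in Huh7 only and was at least 3.33-fold higher. On the Huh1 side, *NCAM1* (neural cell adhesion molecule) read 1.87, 1.68 and 1.68 on the Huh1 arrays, was not above background on any Huh7 array and was at least 371-fold lower there. *CD44*, the hyaluronan receptor, read 0.25, 0.73 and 0.76 in Huh1 and -6.14, -6.20 and -6.28 in Huh7, where it was above background on 1 of 3 arrays, and the keratin gene *KRT7* differed by -2.72. *EPCAM*, *PROM1*, *SOX9* and *KRT19* were thus higher in Huh7 and *KRT7* and *ANPEP* higher in Huh1, all 6 of them above background on every array of both lines.

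Fetal liver genes leaned toward Huh7. Of 17 oncofetal genes tested, 12 were higher and 2 lower in Huh7, and 6 and 1 of these by at least 2-fold, with a median of 0.70. *AFP* read 4.50, 5.11 and 5.05 on the Huh1 control arrays and 8.19, 8.27 and 8.14 on the Huh7 control arrays, a 9.92-fold difference (SE 0.17 on the log2 scale, adjusted p = 1.54e-05). *GPC3*, a membrane proteoglycan of fetal liver and HCC, read 5.38, 5.73 and 5.69 on the Huh1 control arrays and 5.59, 5.59 and 5.62 on the Huh7 control arrays. Its groups overlapped and the difference was 0.00 (SE 0.10, adjusted p = 0.991), but without Huh1 array 1 it was -0.11 (adjusted p = 0.0437). *DLK1*, a hepatoblast surface protein, differed by -0.28 (adjusted p = 0.161), and passed the test with median scaling (-0.44, adjusted p = 0.0361) and quantile normalization (-0.43, adjusted p = 0.0429).

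The gene with the largest bound in the whole comparison was *IGF2*, the fetal growth factor. It read -7.76, -7.06 and -7.73 on the Huh1 arrays, on none of which it was above background, and 8.26, 8.24 and 8.22 on the Huh7 arrays. The bound was at least 27673-fold. *IGF2* passed the filter on dim probes through Huh7 alone, so its direction is no separate result. The median over its 2 probes gave a fitted difference of 12.48 in place of 15.76. *SALL4*, a transcription factor of embryonic stem cells and fetal liver, read -4.31, -4.69 and -4.39 on the Huh1 control arrays and 3.19, 3.23 and 3.20 on the Huh7 control arrays, and *HMGA2*, a chromatin protein of embryonic tissue, differed by 4.63. *AKR1B10*, an aldo-keto reductase often raised in HCC, was the 1 gene of the list at least 2-fold lower in Huh7, reading 8.82, 8.77 and 8.72 on the Huh1 control arrays and 1.34, 1.23 and 1.39 on the Huh7 control arrays.

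**Figure D2:**
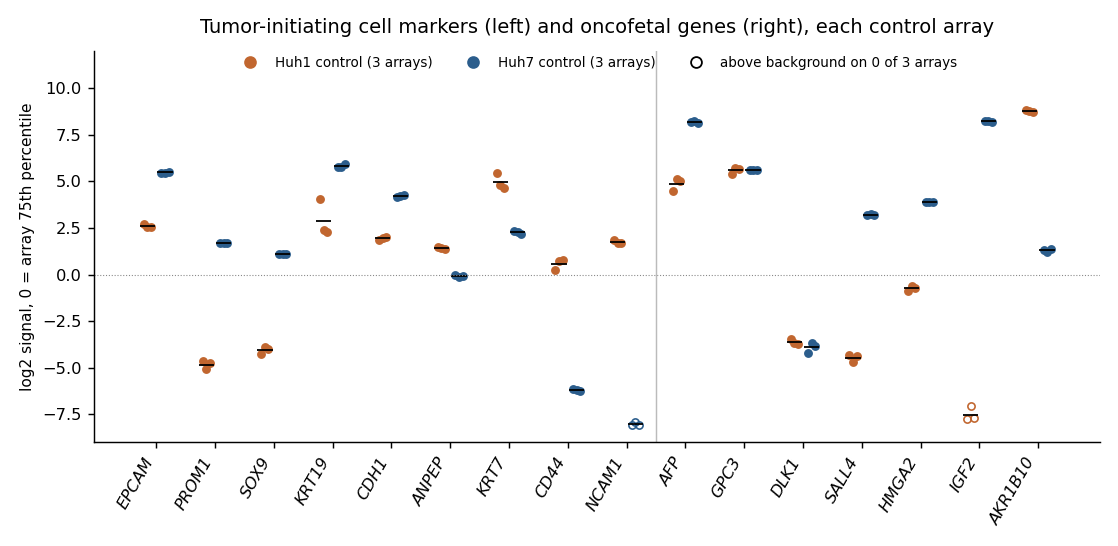
Level of 16 marker genes on each control array, in log2 units relative to the array's 75th percentile (3 Huh1 arrays and 3 Huh7 arrays per gene, bars at the means, open circles where no array of that line was above background). *GPC3* overlapped between the lines, and *IGF2* separated them by the widest gap.

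HOX genes formed the list with the highest median. They encode homeodomain transcription factors that set position along the body axis, and lie in 4 clusters, A to D, in which neighbouring genes are often switched on together. Of 35 tested, 30 were higher and 2 lower in Huh7, and 27 and 1 by at least 2-fold, against 21.7% and 16.8% of all genes. The median difference was 3.89, and 13 members were seen in Huh7 only while none was seen in Huh1 only. A member that passed the filter on dim probes through Huh7 alone could hardly come out lower there. The direction of such members is therefore no separate result.

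The clusters did not behave alike. All 8 tested genes of the HOXD cluster were higher in Huh7, 6 of them seen there only, with a median difference of 6.66. None of the 8 was above background on all 6 arrays, so the filter through Huh7 had largely fixed their direction. *HOXD1* was at least 189-fold higher, *HOXD8* at least 97.8-fold and *HOXD10* at least 69.4-fold. In the HOXB cluster all 9 tested genes were higher, with a median of 3.37, and 3 of them were above background on all 6 arrays. *HOXB9* had the largest bound of the list and read -6.87, -7.50 and -7.59 on the Huh1 arrays and 2.85, 2.85 and 2.92 on the Huh7 arrays, at least 670.5-fold higher (fitted difference 10.19, or 7.97 with all 18 arrays and the slide as a block). In the HOXC cluster 8 of 9 were higher, with a median of 4.73, and 4 of the 9 were above background on all 6 arrays. *HOXC6* differed by 6.64 and *HOXC12* was at least 104-fold higher (fitted difference 8.005, or 9.35 with the slide block). *HOTAIR*, a long noncoding RNA made between *HOXC12* and *HOXC11*, was also seen in Huh7 only (at least 27.4-fold).

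The HOXA cluster was the exception. All 9 of its tested genes were above background on all 6 arrays, and their median difference was 0.24. Here 5 were higher and 2 lower in Huh7. *HOXA9* read -0.03, -0.09 and 0.00 on the Huh1 control arrays and 0.20, 0.23 and 0.17 on the Huh7 control arrays, a difference of 0.24 (adjusted p = 0.00413). *HOXA13*, the last gene of the cluster, was 3.49-fold lower in Huh7, and *HOXA11*, its neighbour, was 12.6-fold higher.

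**Figure D3:**
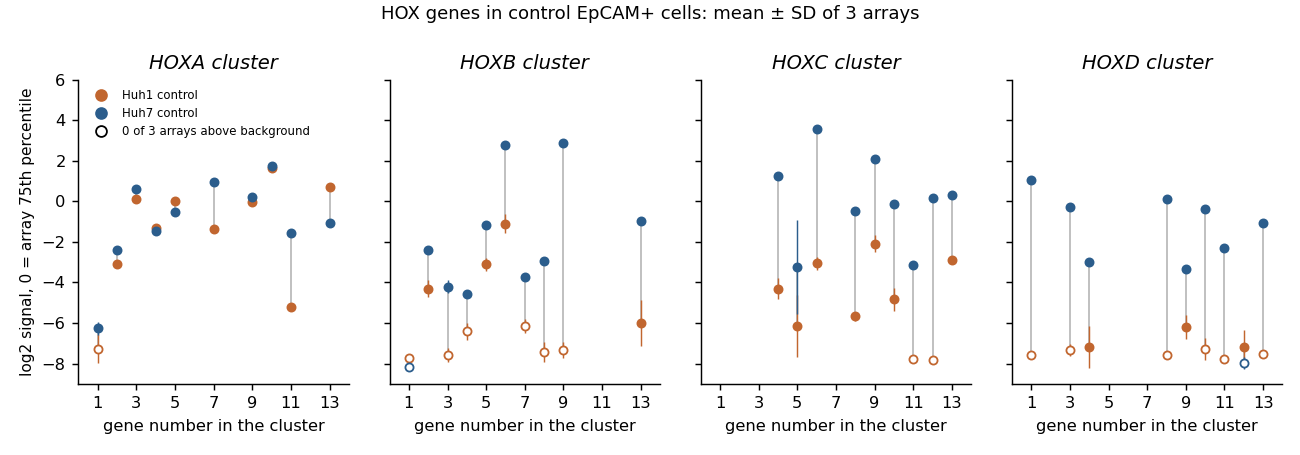
Level of each HOX gene by its number in the 4 clusters (mean ± SD of 3 arrays per line, log2 relative to the 75th percentile, open circles where no array was above background). The 8 tested HOXD genes, none of them above background on every array, were all higher in Huh7, while the 9 tested HOXA genes were read in both lines.

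Other developmental regulators stood among the genes seen in 1 line only. The 10 largest bounds on the Huh7 side were those of *IGF2*, *EFEMP1*, *REG1A*, *CDX2*, *MNX1*, *SLC6A14*, *GRK3*, *KANK4*, *BEX1* and *MX2*. *EFEMP1*, a matrix glycoprotein, read -7.57, -7.49 and -7.49 in Huh1 and 6.04, 5.997 and 6.06 in Huh7, at least 5997-fold higher. *CDX2*, a homeodomain factor of the intestine, read -7.16, -7.67 and -7.69 and 4.01, 4.03 and 4.04, at least 1496-fold. *MNX1*, a homeodomain factor of motor neurons and pancreas, was at least 1037-fold higher and *REG1A*, a secreted lectin of the pancreas and gut, at least 2005-fold. These genes were picked as seen in Huh7 only, so the separation of their arrays was fixed by that choice.

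On the Huh1 side the 10 largest bounds were those of *NR0B1*, *HSPA1A*, *OCIAD2*, *DPP10-AS1*, *AQP7P3*, *MSN*, *CD36*, *VSIG1*, *HKDC1* and *NEFH*. All 10 were picked as seen in Huh1 only, so the separation of their arrays was fixed by that choice. *NR0B1*, the orphan nuclear receptor DAX1, read 6.24, 6.17 and 6.08 in Huh1 and -6.61, -7.90 and -6.76 in Huh7. It was at least 7159-fold lower in Huh7. *HSPA1A*, an inducible heat shock protein 70 gene, read 4.74, 5.01 and 4.96 and -8.20, -7.96 and -8.14, at least 3313-fold lower. Its near-identical neighbour *HSPA1B*, looked up after these values were seen, was read in both lines and was 2.3-fold lower in Huh7, and probes of such pairs may share target RNA. *MSN* (moesin, which ties actin to the membrane) was at least 1851-fold lower and *CD36*, a fatty acid transporter, at least 1679-fold lower. *AQP7P3* is a pseudogene that resembles other aquaporin genes, so its probe may read more than 1 of them.

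Among the 12932 genes above background on all 6 arrays, *UCHL1*, a ubiquitin hydrolase of neurons, had the largest difference on the Huh7 side. It read -3.43, -2.78 and -2.57 on the Huh1 control arrays and 6.91, 6.88 and 6.86 on the Huh7 control arrays, 899-fold higher. *LGALS3* (galectin-3) read -3.57, -3.50 and -3.30 on the Huh1 control arrays and 6.24, 6.23 and 6.24 on the Huh7 control arrays, 825-fold higher in Huh7. *GAL* (the neuropeptide galanin) and *FBLN1* (the matrix protein fibulin-1) differed by 9.68 and 8.73. The remaining genes of the 10 highest were *ADRA2C*, *AQP10*, *SALL4*, *TESC*, *PRR15L* and *PRKAR2B*, with differences from 7.31 to 8.21.

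In the other direction *LDHB*, the lactate dehydrogenase subunit of heart type, had the largest difference of any gene read in both lines. It read 7.21, 7.39 and 7.36 on the Huh1 control arrays and -3.75, -4.13 and -3.84 on the Huh7 control arrays, a 2400.4-fold difference (SE 0.11 on the log2 scale, adjusted p = 3.51e-08). *ANXA1* (annexin A1) was 571-fold, *VNN1* (vanin 1, a pantetheinase) 545-fold and *LGALS4* (galectin-4) 499-fold lower in Huh7. With *LGALS3* higher and *LGALS4* lower, 2 members of the galectin family stood at opposite ends of the comparison. The others of the 10 lowest were *HPD*, *PFKP*, *HAMP*, *GATM*, *CPS1* and *CTAG1A*.

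Genes seen in 1 line only also lay side by side in the genome. In the order of RefSeq gene starts, 20 runs of at least 3 neighbouring genes were all seen in the same line only, 12 of them in Huh7 and 8 in Huh1, with 66 genes in all. Huh7 runs included *HOXB7*, *HOXB8* and *HOXB9*, then *HOXC12*, *HOTAIR* and *HOXC11*, and also *RAET1K*, *ULBP3*, *PPP1R14C*, *IYD* and *PLEKHG1*. *PPP1R14C*, a phosphatase inhibitor, had the highest bound of that last run (at least 243-fold). *PLAGL1*, an imprinted zinc finger gene, and *HYMAI*, the noncoding RNA made from the same locus, formed a run with *ZC2HC1B* (at least 19.3-fold, 21.7-fold and 11.5-fold).

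Huh1 runs included *SNRPN*, *SNURF* and *PWARSN*, which are transcribed from the imprinted Prader-Willi locus and partly overlap, so that their probes may read the same transcript. *SNRPN* read 1.09, 1.37 and 1.34 in Huh1 and -8.21, -8.01 and -7.91 in Huh7, at least 267-fold lower. The run *KLRC4*, *KLRC3* and *KLRC1* encodes closely related receptors of natural killer cells, and the run *OR2A20P*, *OR2A7* and *OR2A9P* belongs to a family of near-identical olfactory receptor copies ending at *ARHGEF5*, so those members are not independent readings. A group of 4 Huh1 runs was X-linked. It included *SPIN4*, *LINC01278* and *AMER1*, then *MTMR8*, *ZC4H2* and *ZC3H12B*, then *BRWD3*, *HMGN5* and *SH3BGRL*, and last *ZNF711*, *POF1B* and *CHM*. *SH3BGRL* read 2.13, 2.36 and 2.30 in Huh1 and -8.23, -8.03 and -8.25 in Huh7, at least 532-fold lower. *HMGN5*, a nucleosome-binding protein, was at least 362-fold lower and *ZC4H2*, a zinc finger protein, at least 415-fold lower.

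Genes were also taken 20 at a time in genome order, which reads the same values again and is no separate result. Over 735 such windows the quartiles of the window medians were -0.32 and 0.33, and 37 windows had a median above 1 and 11 a median below -1. The lowest was the window from *MAGED2* to *ZC3H12B*, with a median of -3.39. It holds the runs of *SPIN4* and of *MTMR8* described above. In it 18 of 20 genes were lower in Huh7. Of these, 11 were seen in Huh1 only, so the filter through Huh1 had largely fixed their direction. *MAGEH1*, a MAGE family gene, was among them at least 194-fold lower, while *UBQLN2*, which encodes a ubiquilin of protein turnover, differed by -0.43 in the same stretch and was read in both lines. The highest was the window from *SP9* to *LINC01116*, which contains the HOXD cluster, with a median of 3.38. In it 15 of 20 genes were higher in Huh7, 8 of them seen in Huh7 only and so largely fixed in direction by the filter. The flanking *MTX2* (a mitochondrial import protein) was read in both lines and differed by 0.59.

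**Figure D4:**
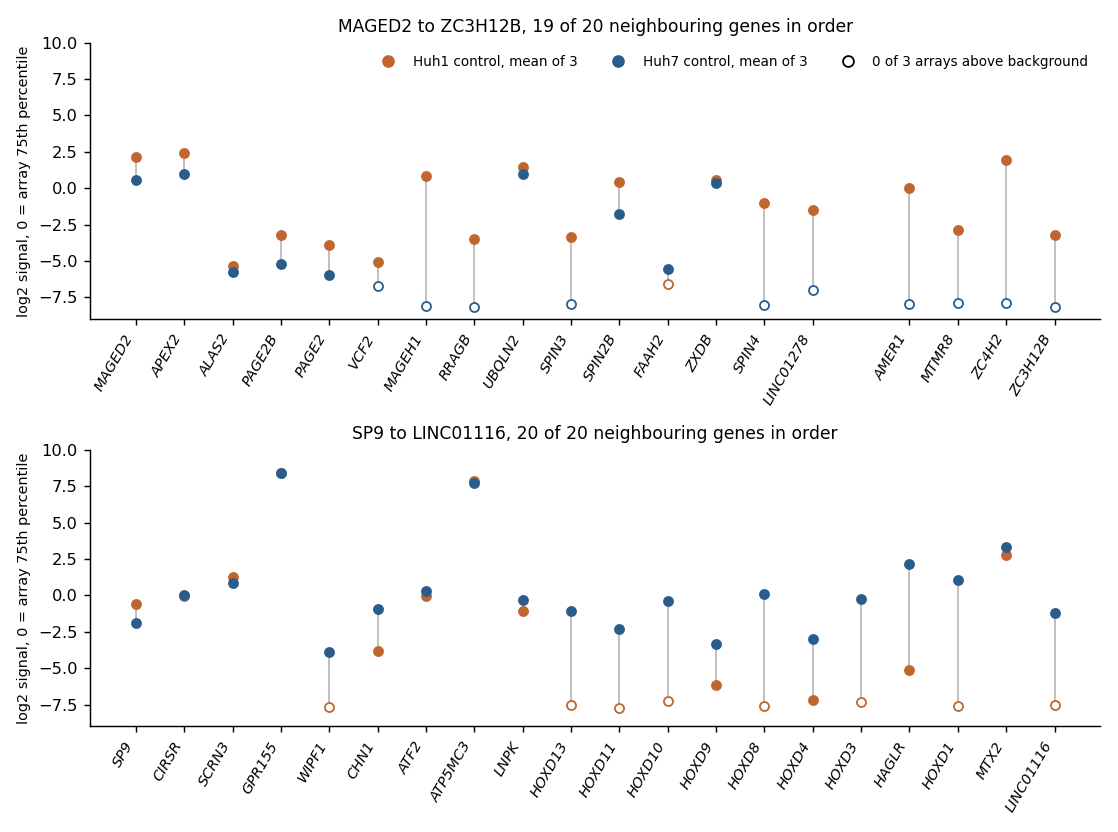
Mean level in each line (log2 relative to the array's 75th percentile) of the genes in the lowest and the highest window of 20 neighbouring tested genes, in genome order and not to scale of distance. Open circles mark a line with no array above background. In the *MAGED2* to *ZC3H12B* window Huh7 was at the floor for 11 genes (1 of them is not drawn), and in the *SP9* to *LINC01116* window Huh1 was at the floor for 8.

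Secreted liver proteins were mostly lower in Huh7, although both lines kept the core of them. Of 33 plasma carrier and acute phase genes tested, 24 were lower and 7 higher in Huh7, 19 and 5 by at least 2-fold, with a median of -1.97. *HAMP*, which encodes the iron hormone hepcidin, had the largest difference and read 6.90, 6.77 and 6.68 on the Huh1 control arrays and -2.21, -2.51 and -2.31 on the Huh7 control arrays. *A1BG* was 33.8-fold, *ITIH1* (a hyaluronan-binding inhibitor subunit) 27.3-fold, *HRG* (histidine-rich glycoprotein) 25-fold and *GC* (vitamin D-binding protein) 20.2-fold lower in Huh7. *HP* (haptoglobin), *ORM1* and *ORM2* (acid glycoproteins) were also lower (differences of -3.90, -3.84 and -4.33). The last 2 genes are near-identical, and their probes may read the same RNA.

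A few plasma protein genes were much higher in Huh7. *SAA2*, a serum amyloid A gene of the acute phase, read -3.08, -2.07 and -2.20 on the Huh1 control arrays and 4.22, 4.24 and 4.28 on the Huh7 control arrays. *SERPINA3*, the acute phase inhibitor of chymotrypsin, differed by 6.48, *SAA1* by 4.60 and *TTR* (transthyretin) by 2.14. *ALB* differed by -0.20 (SE 0.05, adjusted p = 0.0144). That call was lost with quantile normalization (adjusted p = 0.191), spike-in scaling (0.161), the slide as a block over 18 arrays (0.0722), and when Huh7 array 2 (0.0524) or array 3 (0.0549) was left out, where the differences were -0.19 and -0.18.

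The coagulation and complement list had 21 lower and 11 higher of 37 tested, and 18 and 7 by at least 2-fold (median -0.74). *C9*, the pore-forming last component of complement, was seen in Huh1 only and was at least 125-fold lower in Huh7. *F13B*, a subunit of the fibrin-stabilising factor, was at least 32.5-fold lower, and *PLG* (plasminogen) differed by -3.41. *SERPINF1* (an inhibitor of vessel growth) and the coagulation factor genes *F7* and *F10* were higher, by 3.23, 1.69 and 1.76. The apolipoproteins were split, with 12 higher and 11 lower of 25 tested. By at least 2-fold it was 9 and 8 (36% and 32%), against 21.7% and 16.8% of all genes. *APOC3*, *APOA4* and *APOA1* were higher in Huh7, by 3.40, 3.40 and 1.82. Without Huh1 array 1 the *APOA4* difference was 4.07. *APOB*, *APOH* and *PON1* were lower (differences of -1.90, -3.50 and -4.55).

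The transcription factors that drive hepatocyte genes were split, much as all genes were. Of 28 tested, 12 were higher and 11 lower. By at least 2-fold it was 6 and 4 (21.4% and 14.3%), near the 21.7% and 16.8% of all genes. *HNF4A*, the master regulator of hepatocytes, read -1.95, -2.27 and -2.10 on the Huh1 control arrays and -2.13, -2.17 and -2.08 on the Huh7 control arrays (adjusted p = 0.823). *GATA6*, a factor of early endoderm, differed by 3.82. The drug-sensing receptors *NR1I2* (PXR) and *NR1I3* (CAR) were lower in Huh7 (differences of -1.93 and -1.37), and so was *CEBPA* (-0.83), a factor of mature hepatocytes.

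Drug-metabolising enzymes were mostly lower in Huh7 as well. Of 30 cytochrome P450 genes tested, 20 were lower and 6 higher in Huh7, 18 and 5 by at least 2-fold, with a median of -1.76. *CYP24A1*, which degrades active vitamin D, was seen in Huh1 only (at least 202-fold lower in Huh7). *CYP1B1*, which oxidises estrogens and hydrocarbons, was 18.1-fold lower and *CYP3A5*, a member of the main drug-clearing subfamily, 5.28-fold. *CYP51A1* of sterol synthesis and *CYP2D6* were higher, by 1.60 and 1.19. Members of a P450 subfamily are similar in sequence, and single probes may not separate them fully.

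Conjugating enzymes had 21 lower and 8 higher of 31 tested. *UGT2B4*, *UGT2B7*, *UGT2B10* and *UGT2B11*, which attach glucuronic acid to bile acids, steroids and drugs, were lower (differences of -8.08, -5.38, -6.57 and -7.39). *GSTA2*, the alpha class glutathione transferase of liver, read 6.50, 6.25 and 6.16 on the Huh1 control arrays and 1.03, 0.95 and 1.11 on the Huh7 control arrays. The pi class gene *GSTP1* showed the opposite. It read -4.65, -5.71 and -5.62 on the Huh1 arrays, above background on array 1 alone, and 8.61, 8.61 and 8.61 on the Huh7 arrays, a fitted difference of 13.94 (SE 0.29, adjusted p = 4.84e-07) that rests on Huh1 signals close to background.

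The aldehyde dehydrogenases are the family that disulfiram inhibits. Of 16 tested, 10 were lower and 6 higher in Huh7, 7 and 4 by at least 2-fold, with a median of -0.84. *ALDH2*, the mitochondrial enzyme of ethanol clearance, read 3.36, 3.68 and 3.68 on the Huh1 control arrays and 4.40, 4.42 and 4.45 on the Huh7 control arrays, 1.8-fold higher in Huh7 (adjusted p = 0.00048). *ALDH1A1*, a cytosolic retinal dehydrogenase, read 7.43, 7.61 and 7.53 on the Huh1 control arrays and 6.77, 6.77 and 6.74 on the Huh7 control arrays, 1.7-fold lower (adjusted p = 7.5e-05). Both passed the test with differences under 2-fold. The wide differences were in other members. *ALDH1L1*, a folate enzyme, read 2.90, 2.87 and 2.87 in Huh1 and was not above background in Huh7, at least 815-fold lower there, and *ALDH3A1*, which clears aromatic aldehydes, differed by -7.15. *ALDH3A2* and *ALDH4A1* differed by -3.64 and -2.82, and *ALDH1L2*, the mitochondrial partner of *ALDH1L1*, by 1.78.

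Antioxidant genes were mostly lower in Huh7. Enzymes that remove reactive oxygen species were another set the study followed. Of 26 tested, 20 were lower and 6 higher, with a median of -0.49. By at least 2-fold it was only 7 and 3 (26.9% and 11.5%), against 16.8% and 21.7% of all genes. *HMOX1* (heme oxygenase 1), *GCLC* (the catalytic subunit of glutathione synthesis), *NQO1* (a quinone reductase), *TXNRD1* (thioredoxin reductase) and *SRXN1* (sulfiredoxin) were lower (differences of -3.32, -2.70, -2.39, -2.33 and -2.06). *GCLM*, the regulatory subunit of glutathione synthesis, read 4.68, 4.58 and 4.69 on the Huh1 control arrays and 3.20, 3.40 and 3.18 on the Huh7 control arrays, 2.63-fold lower (adjusted p = 1.99e-05). *GSS*, which completes glutathione, differed by -0.19 (adjusted p = 0.00664), and that call was lost with quantile normalization (adjusted p = 0.378), spike-in scaling (0.172) and the normexp background correction (0.0631). *SOD3* (extracellular superoxide dismutase) and *GPX8* (a peroxidase of the endoplasmic reticulum) were higher, by 6.14 and 3.42. So were *PRDX4* and *GSR*, by 1.68 and 0.89.

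Several of the lower genes are textbook targets of the transcription factor NRF2, which binds antioxidant response elements in promoters. The core of that element was searched as TGACNNNGC on both strands of the 250 bases before each gene start in the RefSeq table (GRCh38.p14). It was present in 3013 of 27305 genes (11%), in 3 of the 18 tested scavenger genes with a table entry (16.7%; *GCLM*, *TXNRD1* and *GPX2*), and in 2 of the 5 genes with a table entry among the 7 scavenger genes that were at least 2-fold lower. The promoters of the last 2 genes, *GCLM* and *TXNRD1*, are shown because both genes were lower, and that of *GSTP1* because it carries the core and its gene was far higher in Huh7. The core is in capitals and the last base printed is the one before the gene start.
GCLM (chr1:93909431-93909680, minus strand): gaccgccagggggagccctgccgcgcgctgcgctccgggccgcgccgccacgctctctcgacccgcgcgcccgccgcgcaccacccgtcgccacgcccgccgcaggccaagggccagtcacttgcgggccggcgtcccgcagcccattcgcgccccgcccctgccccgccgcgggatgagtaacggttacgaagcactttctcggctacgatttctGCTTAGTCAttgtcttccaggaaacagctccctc
TXNRD1 (chr12:104215529-104215778, plus strand): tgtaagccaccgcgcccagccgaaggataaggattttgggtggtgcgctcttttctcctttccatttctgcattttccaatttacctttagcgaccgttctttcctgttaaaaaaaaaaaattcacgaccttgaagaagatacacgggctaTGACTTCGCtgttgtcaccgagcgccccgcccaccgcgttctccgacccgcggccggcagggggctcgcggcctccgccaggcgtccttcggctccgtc
GSTP1 (chr11:67583562-67583811, plus strand): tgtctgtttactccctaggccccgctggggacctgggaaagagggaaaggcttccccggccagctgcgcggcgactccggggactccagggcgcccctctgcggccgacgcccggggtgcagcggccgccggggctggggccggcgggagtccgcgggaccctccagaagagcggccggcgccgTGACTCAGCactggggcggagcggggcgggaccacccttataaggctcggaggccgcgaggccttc
The capitals begin 34 bases before the start of *GCLM*, 99 before that of *TXNRD1* and 66 before that of *GSTP1*. In *GCLM* the core lies on the opposite strand, so its capitals are the reverse complement. Read in the direction of the core, the 3 genes carried the same letters at the fixed positions. *GCLM* and *TXNRD1* differed by -1.39 and -2.33. *GSTP1*, chosen after its value was seen, differed by 13.94, a value that rests on Huh1 signals close to background. Whether the core had a part in these differences was not tested. Such a match is a description of the sequence and not a measured binding site.

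Glucose metabolism differed most in single isoenzymes. Of 30 glucose and fructose genes tested, 16 were lower and 11 higher in Huh7 (median -0.53), and *LDHA*, the partner of *LDHB*, differed by 0.02 (adjusted p = 0.758, or 0.13 with adjusted p = 0.0314 under quantile normalization). Phosphofructokinase was also unequal between its forms. *PFKP*, the platelet type, read 4.62, 4.55 and 4.51 on the Huh1 control arrays and -4.51, -4.63 and -4.74 on the Huh7 control arrays, a 583-fold difference, while *PFKM*, the muscle type, was higher in Huh7 by 0.54 (adjusted p = 0.00319). Among hexokinases, *HK1* was 57-fold lower and *HK2* 9.86-fold higher in Huh7. The liver genes *SLC2A2* (the GLUT2 transporter) and *GYS2* (glycogen synthase) were seen in Huh1 only, at least 99.2-fold and 41.3-fold lower in Huh7. *PCK1*, the rate-setting enzyme of gluconeogenesis, was higher in Huh7 by 4.05, while *G6PC1*, which releases glucose, was lower (-3.86).

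In nitrogen metabolism *CPS1*, the first enzyme of the urea cycle, read 5.34, 5.01 and 5.10 on the Huh1 control arrays and -3.40, -3.30 and -3.41 on the Huh7 control arrays, 368-fold lower in Huh7 (adjusted p = 5.44e-08). *NAGS*, which makes its activator, was 8.97-fold higher, and *OTC*, the next step of the cycle, differed by -1.66. *HPD*, of tyrosine breakdown, was lower (-9.60, SE 0.77) with a wide spread in Huh7, where it read -5.90, -3.03 and -5.48, and the difference was -10.49 without Huh7 array 2. *AGXT*, which detoxifies glyoxylate, was higher by 6.25. Over the 30 genes tested 14 were lower and 12 higher, against 40.7% and 41.8% of all genes. The median of 0.04 changed sign with median scaling, without Huh1 array 1 and, to -0.004, with all 18 arrays and the slide as block.

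Iron genes were mostly lower in Huh7, *HAMP* among them. Of 15 tested 9 were lower and 3 higher in Huh7, 8 and 1 by at least 2-fold, and the median was -1.20. *BMP6*, the growth factor that induces hepcidin, was 59.3-fold lower, *SLC40A1* (ferroportin, the iron exporter) 5.65-fold and *ID1*, a target of BMP signals, 2.34-fold. *FTH1* (ferritin heavy chain) differed by -0.01 (adjusted p = 0.895) and *CYBRD1*, a ferric reductase, was higher by 1.63.

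Copper and zinc handling bears on disulfiram, whose metabolite chelates copper. Of 22 genes tested 14 were lower and 7 higher (9 and 7 by at least 2-fold), with a median of -0.54. The metallothionein genes *MT2A*, *MT1X* and *MT1E* were lower in Huh7 (differences of -1.28, -1.39 and -2.14), and *MT1M* was seen in Huh1 only (at least 12.8-fold lower). *MT1F* was seen in Huh7 only (at least 10.1-fold higher), and these genes are similar enough for probes to overlap in what they read. The copper exporters differed in opposite directions, with *ATP7B* higher by 1.24 and *ATP7A* lower (-1.73). *SLC31A1*, the copper importer CTR1, read 1.25, 1.53 and 1.50 on the Huh1 control arrays and 1.50, 1.50 and 1.47 on the Huh7 control arrays (adjusted p = 0.537).

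Genes that handle 5-fluorouracil were mostly lower in Huh7, but few of them by 2-fold. Of 21 tested 13 were lower and 4 higher, against 40.7% and 41.8% of all genes. By at least 2-fold it was 3 and 2 (14.3% and 9.52%), below the 16.8% and 21.7% of all genes. The 2 higher ones were *DPYD* and *SLC29A2* (difference 1.78). *DPYD*, the enzyme that starts the breakdown of the drug, read -4.94, -3.79 and -3.78 on the Huh1 control arrays and 0.55, 0.64 and 0.59 on the Huh7 control arrays, a 27.2-fold difference (adjusted p = 5.15e-05). The later enzymes of the same route, *DPYS* and *UPB1*, were lower, *DPYS* at least 17.1-fold and *UPB1* 6.89-fold. *TYMS*, the drug's target enzyme, differed by -0.63 and *UMPS*, which activates the drug, by -0.83. The median over the probes of *DPYD* was 2.77 in place of 4.77.

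In the p38 MAPK cascade, 12 were lower and 10 higher of 26 tested, with a median of -0.06 that turned positive with quantile normalization and spike-in scaling. By at least 2-fold it was 6 and 5 (23.1% and 19.2%), against 16.8% and 21.7% of all genes. *MAPK14*, which encodes p38 alpha, read 0.46, 0.52 and 0.51 on the Huh1 control arrays and 0.05, 0.03 and 0.06 on the Huh7 control arrays, 1.36-fold lower in Huh7 (adjusted p = 0.000168), and *MAPK12* and *MAPK13*, the gamma and delta isoforms, were higher by 2.50 and 1.24. *MAP3K5* (ASK1, an upstream kinase) and *DUSP1* (a phosphatase that switches p38 off) were lower (differences of -2.09 and -2.28).

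Of the 9 cell cycle inhibitor genes tested, *CDKN1C* (p57) was seen in Huh7 only and read -5.71, -5.86 and -5.94 in Huh1 and -3.66, -3.52 and -3.68 in Huh7, at least 4.65-fold higher. *CDKN1B* (p27) was 3.91-fold higher and *CDKN2B* (p15) 4.35-fold lower, while *CDKN2A* differed by -0.01 (adjusted p = 0.956). *CDK2* read -1.10, -1.18 and -1.19 on the Huh1 control arrays and -0.35, -0.31 and -0.35 on the Huh7 control arrays, 1.77-fold higher in Huh7 (adjusted p = 1.91e-05). Proliferation genes as a list had 15 higher and 7 lower of 26, but only 2 and 1 by at least 2-fold. *CCNE1* (cyclin E1) was higher by 1.60 and *CCNE2* (cyclin E2) lower (-1.50). *MYCN* was seen in Huh7 only, at least 157-fold higher, and its relative *MYC* was lower (-0.90).

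Receptors and growth factors differed in both directions. Of 25 tested, 14 were higher and 8 lower in Huh7, 12 and 6 by at least 2-fold (median 0.62). *FGFR2* and *PDGFRA* were seen in Huh7 only, at least 129-fold and 46.8-fold higher, and *FGFR3*, *FGFR4* and *ERBB2* were higher by 2.13, 1.38 and 1.99. *KLB*, the co-receptor that lets *FGFR4* bind FGF19, was higher by 2.27. The ErbB ligand genes *NRG1* and *AREG* were lower (differences of -5.24 and -2.54), as was *IGFBP2* (-7.30), which binds insulin-like growth factors. *AXL*, a receptor kinase of invasive cells, was 3.82-fold lower. In the Wnt list 7 were higher and 3 lower of 13, where *LEF1*, a transcription factor that carries Wnt signals, was seen in Huh7 only (at least 191-fold) and *TCF7*, its relative, was lower (-2.21).

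Epithelial and mesenchymal genes were divided, much as all genes were, with 11 higher and 12 lower of 26. By at least 2-fold it was 6 and 6 (23.1% each), against 21.7% and 16.8% of all genes. *OVOL2*, a keeper of the epithelial state, differed by 5.41 (3.25 with all 18 arrays and the slide as a block). *CLDN3* and *CLDN4*, tight junction proteins, were lower in Huh7 (differences of -6.70 and -4.33), and so were the matrix genes *FN1* (-2.51) and *TGFBI* (-6.34). *VIM* (vimentin) read 5.99, 5.78 and 5.77 on the Huh1 control arrays and 5.37, 5.44 and 5.40 on the Huh7 control arrays, a difference of -0.44.

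Cancer-testis antigens, germline genes that tumors express again, had the lowest median of the lists (-2.12). Of 21 tested, 15 were lower and 5 higher in Huh7, 13 and 5 by at least 2-fold. *CTAG1A* (NY-ESO-1) read 6.37, 6.31 and 6.21 on the Huh1 control arrays and -2.05, -2.18 and -1.96 on the Huh7 control arrays, and *CTAG2* differed by -8.25. *PAGE1* was seen in Huh1 only (at least 131-fold). *DDX43* and *BRDT* were seen in Huh7 only, at least 612-fold and 141-fold higher, and *PRAME* was higher by 4.33. Many of these genes have near-identical copies, so the member that a probe reads is uncertain.

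Antigen presentation genes were lower in Huh7 almost throughout. Of 19 genes tested, 17 were lower in Huh7, 10 of them by at least 2-fold, and 1 was higher, with a median of -1.06. *TAP1* and *TAP2*, which carry peptides into the endoplasmic reticulum, were lower (differences of -0.92 and -1.74), as were the immunoproteasome subunit *PSMB8* (-1.55) and *B2M*, the light chain of HLA class I (-0.67). The HLA genes are variable in sequence between people, which can change how a probe binds, and *HLA-C* differed by -2.40. *HLA-DMB*, a loader of class II peptides, was the 1 higher gene (5.25).

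Interferon-stimulated genes did not move as 1 block. Of 31 tested, 17 were lower and 11 higher. By at least 2-fold it was 11 and 7 (35.5% and 22.6%), against 16.8% and 21.7% of all genes. The RNA sensors *IFIH1*, *RIGI*, *DHX58* and *TLR3* were lower in Huh7 (differences of -3.45, -1.04, -3.79 and -2.23). *IRF7*, which switches on interferon genes, and *OASL*, which boosts RNA sensing, were lower (differences of -4.12 and -4.53). *MX2*, a restriction factor of viruses, read -5.91, -6.18 and -5.91 in Huh1 and 3.36, 3.38 and 3.43 in Huh7, at least 673-fold higher, and *HERC5*, the ligase for ISG15, was at least 34.5-fold higher.

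Imprinted genes, of which normally 1 parental copy is active, included several of the widest differences in both directions. Of 22 tested 11 were higher and 9 lower in Huh7. By at least 2-fold it was 8 and 5 (36.4% and 22.7%), against 21.7% and 16.8% of all genes. Among the 22, 4 were seen in Huh7 only and 3 in Huh1 only. *H19*, the noncoding neighbour of *IGF2*, was above background on 2 of 3 Huh7 arrays and averaged -2.90 ± 0.69 in Huh1 and -4.90 ± 1.85 in Huh7 (SD, n = 3), a difference of -2.004 that did not pass the test (adjusted p = 0.111). Its Huh7 arrays read -5.99, -2.76 and -5.96, and without array 2 the difference was -3.07 (adjusted p = 0.00258), while with all 18 arrays its adjusted p was 0.0171. In the imprinted cluster next to it *KCNQ1OT1*, an antisense noncoding RNA, was higher by 2.43 and *PHLDA2*, a growth regulator of placenta, lower (-3.37). *MEST* was higher by 4.01, and *NDN* (necdin) and *NAP1L5* were seen in Huh1 only, at least 12.8-fold and 40.1-fold lower in Huh7.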

How the data were processed

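The authors labelled total RNA with Cy3, hybridised it to Agilent 1-colour human arrays and read each array with Agilent Feature Extraction 10.7.1.1. The deposited scanner files give each spot's processed signal, an intensity after background subtraction, and the flag for signals well above background. The deposited normalized table holds normalized intensities per probe, which were taken to log2 and served as an alternative. Samples were grouped by the control labels. Control spots and outlier flags were left out, spots of a probe were averaged, and log2 signals were taken relative to the 75th percentile of each array. Probes were tested if 1 or both lines had them above background on every array, using limma 3.58.1 in R 4.3.3 on the 6 arrays, with Benjamini-Hochberg adjustment over 27438 probes and a threshold of 0.05. On simulated data with 100 changed probes per size, 69% at a log2 difference of 1 and 92% at 2 were recovered, with 12 false calls. Far fewer probes were changed there than the 76.3% called here, so these figures need not hold for this comparison. Accessions on the array named 25771 of 42405 probes through RefSeq; 263 of 3706 genes with several probes had 1 called the other way. Named were genes of the study, the 10 largest differences and bounds per direction, the largest called members of each list and of neighbouring runs. Further list members and neighbours were added after their values were seen, for their roles. The members and lists were chosen with earlier results of these data known. The number of arrays limits the precision. A few genes are not reported here.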

Additional observations from a re-analysis of the deposited data

How the results depend on the processing

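Over 27438 probes the count of calls, 20946, ranged from 19499 to 21244 when 1 array was left out, those higher in Huh7 from 9508 to 10526 and those lower from 9984 to 10718. Probes seen in 1 line only numbered 1982 for Huh7 and 818 for Huh1, and with 1 array left out 2064 to 2317 and 857 to 890, since fewer arrays then had to qualify. Requiring at least 2-fold as well left 9659 calls, 5358 higher and 4301 lower. That balance turned with the filter on all 6 arrays, which drops probes seen in 1 line only (3050 higher and 3205 lower, or 7810 and 9635 at any size), and with median scaling (4795 and 5188). Without a filter on dim probes 16408 were lower, over 42378 probes. Median scaling moved the median of all probes by -0.16 and gave 8622 higher and 12450 lower. With all 18 arrays and the slide as a block, which rests on 1 treated Huh1 array that shares a slide with Huh7, 8097 were higher and 8470 lower. The slide as a block on the 6 control arrays was not run, since each slide held 1 line. Same-numbered arrays did not deviate together (correlations of 0.00, -0.09 and -0.02), and the replicate block gave 9724 higher and 10060 lower. Under that 18-array slide block the fitted folds of *FGFR2*, *MNX1*, *PLAGL1* and *PRKAR2B* moved by over 1.5 times. Their log2 differences were then 7.68, 10.25, 3.61 and 8.002, in place of 7.01, 11.08, 4.27 and 7.31. The median over a gene's probes in place of the brightest also moved some folds by over 1.5 times. Among these were *CYBRD1* (log2 difference 2.59), *HMGA2* (3.54), *NCAM1* (-7.11) and *TAP2* (-3.09). *GPC3* ranged from -0.11 (without Huh1 control replicate 1) to 0.067 (without Huh1 control replicate 2) with 1 array left out. The normexp correction, added after seeing the data because the mean signals were not in the files used, left 3675 probes higher and 3262 lower by at least 2-fold. List medians near 0 changed sign under some settings, among them those of hepatocyte transcription factors, apolipoproteins, urea cycle, transporters, p38, cell cycle inhibitors and imprinted genes.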
